A study of Mus musculus with 7 samples.

Results

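The transcription factor genes that specify and maintain skeletal muscle were examined for occupancy by BMAL1, REV-ERBα and RNA polymerase II (RNAP2) in adult mouse muscle. The set was the 4 myogenic regulatory factor (MRF) genes *Myod1*, *Myog*, *Myf5* and *Myf6*, 3 of the MEF2 genes (*Mef2a*, *Mef2c* and *Mef2d*) and *Six4*. These are 8 of the 21938 protein-coding genes of the annotation. Members were given by name, and a peak was assigned to a gene when it overlapped the gene body or lay within 10 kb of an annotated transcription start site (TSS). Chromatin immunoprecipitation followed by sequencing (ChIP-seq) had been done on whole gastrocnemius, a mostly fast-twitch calf muscle, of wild-type male C57BL/6J mice aged 5 months. BMAL1 and RNAP2 were mapped at Zeitgeber time (ZT, hours after lights on) 4 and REV-ERBα at ZT 8, each in 2 biological replicates, with 1 list of peaks per replicate. All groups therefore shared genotype, strain, sex, age and tissue, and the factors differed in antibody and, for REV-ERBα, in time of day.

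The MRFs are basic helix-loop-helix activators that dimerize with E proteins on E-boxes. MYOD and MYF5 commit cells to the muscle lineage, myogenin (MYOG) drives their differentiation and fusion, and MRF4 (*Myf6*) is the member best known from mature fibers. MEF2 proteins are MADS-box factors that act with the MRFs and are held in check by class IIa histone deacetylases, while SIX4 and its relatives are homeodomain factors that bind MEF3 sites together with EYA cofactors. BMAL1 binds E-boxes with CLOCK as the positive arm of the circadian clock, and REV-ERBα is a nuclear receptor that represses transcription from response elements shared with ROR receptors.

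Each peak carried a −log10 p, a −log10 q (the p-value corrected for multiple testing) and a fold enrichment over input DNA. All were given by the peak caller at the summit. A single value does not scale with gene length. The strongest value of a gene is taken over a window that grows with gene length, from 20 kb at *Myod1* to 173 kb at *Mef2c*. For RNAP2 the lists of replicates 1 and 2 held 87870 and 168821 peaks, for REV-ERBα 28881 and 29934, and for BMAL1 34737 and 177669. They hold no read counts, so the depth behind a peak is unknown and no counting interval can be given. Peaks had been called at an uncorrected cutoff of 0.05, and most of them did not reach a −log10 q of 1.3, which is a q-value of 0.05. A region was counted as present in both replicates when overlapping peaks stood in both lists of a factor. With 2 replicates per factor, no test across samples was made, and both replicate values are given in place of an error. The labelled tissue was checked with 10 genes of the muscle fiber contractile and metabolic apparatus. RNAP2 regions were present in both replicates at 10 of 10, against 41.1% of all protein-coding genes. Strongest by the lower replicate were *Pvalb*, a calcium buffer of fast fibers (−log10 p 74.8 and 46.8), and *Acta1*, skeletal α-actin (131 and 39.9). The lower values within 10 kb of a TSS ranged from 2.26 to 46.8 over the 10 genes, and the median over all protein-coding genes was 2.50.

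All 8 genes had at least 1 RNAP2 peak in each replicate, 6 and 5 of them had a REV-ERBα peak in replicates 1 and 2, and 4 and 6 a BMAL1 peak. A peak of any height was common among all protein-coding genes, at 76.9% and 86.5% for RNAP2, 38.7% and 40.1% for REV-ERBα and 38.2% and 84.4% for BMAL1. Regions present in both replicates were less common. RNAP2 regions were found at 6 of the 8 genes (*Myod1*, *Myog*, *Myf5*, *Myf6*, *Mef2a* and *Mef2d*), against 41.1% of all protein-coding genes. REV-ERBα regions were found at 2 of 8, *Mef2a* and *Mef2d*, against 4.44%. BMAL1 regions were also found at 2 of 8, *Mef2a* and *Mef2c*, against 6.81%. Sites common to the clock factors, with a peak in 3 or more of their 4 lists, were present at 0 of 8 genes, against 1.62%. Of the 10 muscle fiber genes, 8 had a REV-ERBα region in both replicates, 8 a BMAL1 region and 7 a site common to the clock factors. Within 1 kb of a TSS, 5 of 8 genes had an RNAP2 region in both replicates (30.5% of all genes), 1 of 8 a REV-ERBα region (2%) and 0 of 8 a BMAL1 region (0.843%). A peak with −log10 q of at least 1.3 was present at 6 and 3 of the 8 genes for RNAP2 (42.4% and 20.5% of all genes), at 1 and 2 for REV-ERBα (1.74% and 2.16%) and at 0 and 0 for BMAL1 (0.264% and 0.16%).

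Long genes gather more peaks, so the same counts were made by gene length. All 4 MRF genes are under 5 kb, and 4 of 4 had an RNAP2 region in both replicates, where 28% of protein-coding genes of that length did. Here and in the count over the 8 genes, *Myf5* was counted only through the region at the *Myf6* promoter. The REV-ERBα share at that length was 3.19% and the BMAL1 share 2.29%, and 0 of the 4 MRF genes had such a region of either factor. *Mef2a* and *Mef2c* are over 50 kb, a class in which 17.2% of genes had a BMAL1 region, 6.31% a REV-ERBα region and 53.1% an RNAP2 region in both replicates. Of this pair, 2 had a BMAL1 region, 1 a REV-ERBα region and 1 an RNAP2 region. *Mef2d* and *Six4* are between 5 and 50 kb, where 40.7% of genes had an RNAP2 region, 4.12% a REV-ERBα region and 4.19% a BMAL1 region, and the counts for these were 1, 1 and 0 of 2. Counts of 8 genes or fewer are too small to set a family apart from the background, and they are given as descriptions.

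**Figure D1:**
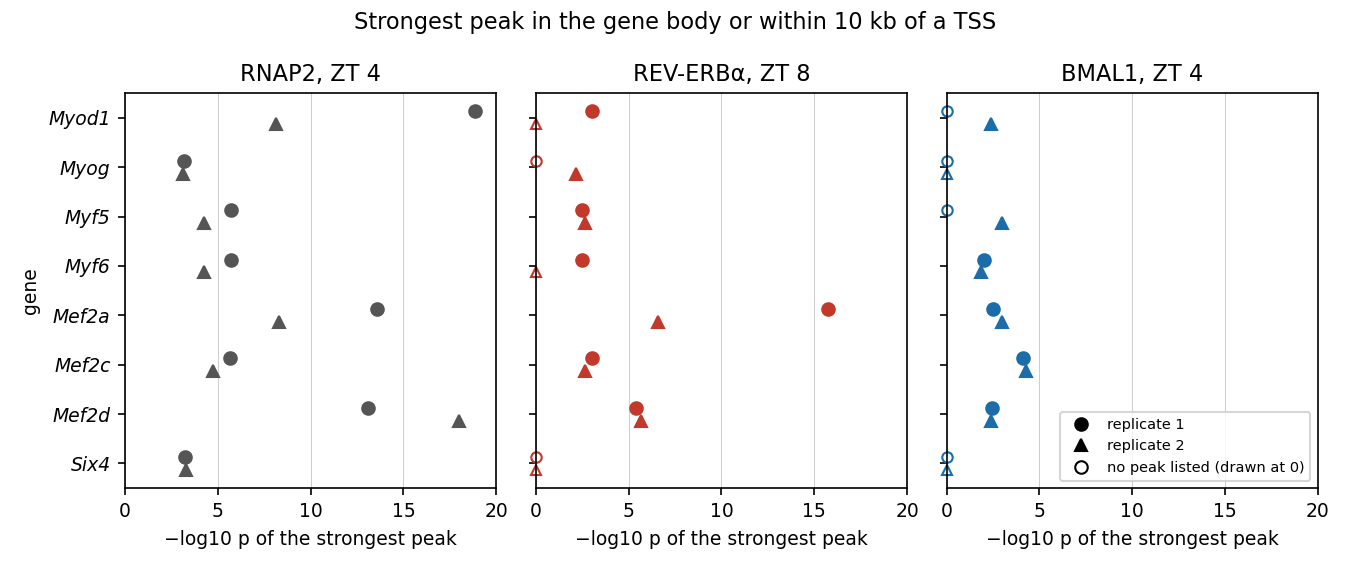
Strongest peak of RNAP2 (left), REV-ERBα (middle) and BMAL1 (right) in the body or within 10 kb of a TSS of each gene; the x axis is −log10 p, circles are replicate 1, triangles replicate 2, and open symbols at 0 mark lists with no peak. *Mef2d*, *Mef2a* and *Myod1* lead for RNAP2 with values of 8.12 to 18.9, *Mef2a* leads for REV-ERBα at 15.8 and 6.60, and no BMAL1 value exceeds 4.25.

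By the strongest RNAP2 peak within 10 kb of a TSS, the genes fell into 3 tiers that did not overlap in either replicate. *Mef2d* (−log10 p 13.1 and 18.0), *Mef2a* (13.6 and 8.30) and *Myod1* (18.9 and 8.12) were highest, and the ranges of these 3 overlapped, so they cannot be ordered. *Mef2c* (5.65 and 4.73) and the peak shared by *Myf5* and *Myf6* (5.70 and 4.27) followed and overlapped each other as well. *Mef2c* has 27 annotated TSSs, and its values in replicates 1 and 2 came from different places. *Six4* (3.21 and 3.26) and *Myog* (3.15 and 3.12) were lowest. In replicate 1 *Six4* was at the median of the RNAP2 list (3.21) and *Myog* below it, and in replicate 2, where the median was 1.99, 86.7% and 85.7% of peaks were weaker than theirs. Over the 8 genes, the median of the lower replicate was 4.50, against 2.50 over all protein-coding genes. In whole muscle, a low value can reflect few nuclei with polymerase at the gene or little polymerase per nucleus, which cannot be told apart.

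*Myod1* (ENSMUSG00000009471, chr7:46376474-46379099 on the + strand of mm10, also called GRCm38) had the strongest RNAP2 peak of the MRF genes. It lay in a region at chr7:46375698-46376769 that covers the promoter and the start of the gene. The summits were 83 bp upstream of the TSS in replicate 1 and 31 bp upstream in replicate 2, with fold enrichments over input of 8.83 and 5.01. Both replicates passed the corrected threshold, at −log10 q of 14.7 and 4.18. By the lower −log10 p within 1 kb of a TSS, 93% of protein-coding genes were below *Myod1*. A weaker RNAP2 region lay 5287 and 5530 bp upstream, at chr7:46370899-46371306, with −log10 p of 3.97 and 1.99. A replicate 1 peak beside it, 4991 bp upstream, had a −log10 p of 4.79 and a −log10 q of 1.64. No replicate 2 peak overlapped it.

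REV-ERBα had 2 peaks at *Myod1* in replicate 1 and 0 in replicate 2. Both overlapped an RNAP2 region, the upstream one at its edge. One peak, at chr7:46376032-46376580, had its summit 41 bp upstream of the TSS and a −log10 p of 3.02, and the other, at chr7:46371206-46371911, lay 5082 bp upstream with 2.50. Both had a −log10 q of 0, and neither was seen in replicate 2, so they do not count as reproducible. BMAL1 had 0 peaks at *Myod1* in replicate 1 and 3 in replicate 2, the highest a pair of 2.40 at 6251 and 7502 bp downstream of the TSS. The other, of 1.40, lay 5004 bp upstream, within the upstream REV-ERBα peak of replicate 1.

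*Myog* (ENSMUSG00000026459, chr1:134289989-134292548, + strand) had an RNAP2 region over its promoter at chr1:134289816-134290554, but a weak one. Replicate 1 had a −log10 p of 3.15 with the summit 106 bp upstream of the TSS, and replicate 2 had 1.84 with the summit 327 bp downstream. The summits were thus 433 bp apart, and the −log10 q was 0.347 and 0. The strongest RNAP2 peak of replicate 2 was elsewhere, 4781 bp upstream, at 3.12. For REV-ERBα, replicate 1 had 0 peaks and replicate 2 a single one of 2.15, 3014 bp upstream. BMAL1 had no peak at *Myog* in either list.

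The *Myog* promoter is shown because its RNAP2 summit lies next to a sequence that reads TCAGGTT, the letters of a MEF3 site bound by SIX4 and its relatives. It was taken from RefSeq (GRCm38), covers chr1:134289754-134290053 on the + strand, and has the TCAGGTT in capitals, beginning 69 bp before the TSS and centered 40 bp from the replicate 1 summit.
Myog promoter: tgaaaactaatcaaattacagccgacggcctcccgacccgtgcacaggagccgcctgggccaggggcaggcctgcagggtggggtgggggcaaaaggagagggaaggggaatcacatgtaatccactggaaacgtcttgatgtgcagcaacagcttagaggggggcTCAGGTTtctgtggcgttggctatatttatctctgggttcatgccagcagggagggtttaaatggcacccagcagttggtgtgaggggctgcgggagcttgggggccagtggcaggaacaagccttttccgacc
Of all 32851 RefSeq promoters of this length, 4.07% hold TCAGGTT on either strand.

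*Myf6* and *Myf5* lie one behind the other on the − strand of chromosome 10, with *Myf6* (ENSMUSG00000035923, chr10:107492853-107494737) upstream of *Myf5* (ENSMUSG00000000435, chr10:107482908-107486134). The RNAP2 region at chr10:107494389-107495071 covered the *Myf6* TSS, with −log10 p of 5.70 and 4.27 and fold enrichments of 4.05 and 3.30. The summits stood 141 bp upstream of the *Myf6* TSS in replicate 1 and 141 bp downstream in replicate 2. The corrected threshold was passed in replicate 1 (−log10 q of 2.43) and not in replicate 2 (0.863). Another RNAP2 region, at chr10:107499042-107500194, lay 4877 and 4990 bp upstream of *Myf6* with 4.68 and 3.12.

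*Myf5* had no RNAP2 peak at its own start site. The *Myf6* promoter region is within 10 kb of the *Myf5* TSS, 8744 and 8462 bp upstream, and it was the region that placed *Myf5* among the genes with RNAP2 in both replicates. Within 1 kb of the *Myf5* TSS, neither RNAP2 list had a peak, whereas 49% and 47.9% of protein-coding genes had one there. With a window of 5 kb, *Myf5* had no RNAP2 region in both replicates. When the 10 to 30 kb around each TSS were searched as well, a step added after seeing the data, that other region of *Myf6* was the only further region in both replicates for any of the 8 genes and 3 factors.

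Neither clock factor had a region in both replicates at this pair of genes. REV-ERBα had a peak of 2.50 in replicate 1 that spans the 3′ end of *Myf6* and lies 6673 bp upstream of *Myf5*, and one of 2.65 in replicate 2 at 7415 bp downstream of the *Myf5* TSS. BMAL1 had a peak of 2.00 in replicate 1, 4856 bp upstream of *Myf6*, and in replicate 2 peaks of 1.87 between the genes and 2.98 at 4050 bp downstream of the *Myf5* TSS. None of these overlapped between replicates, and none had a −log10 q above 0.

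**Figure D2:**
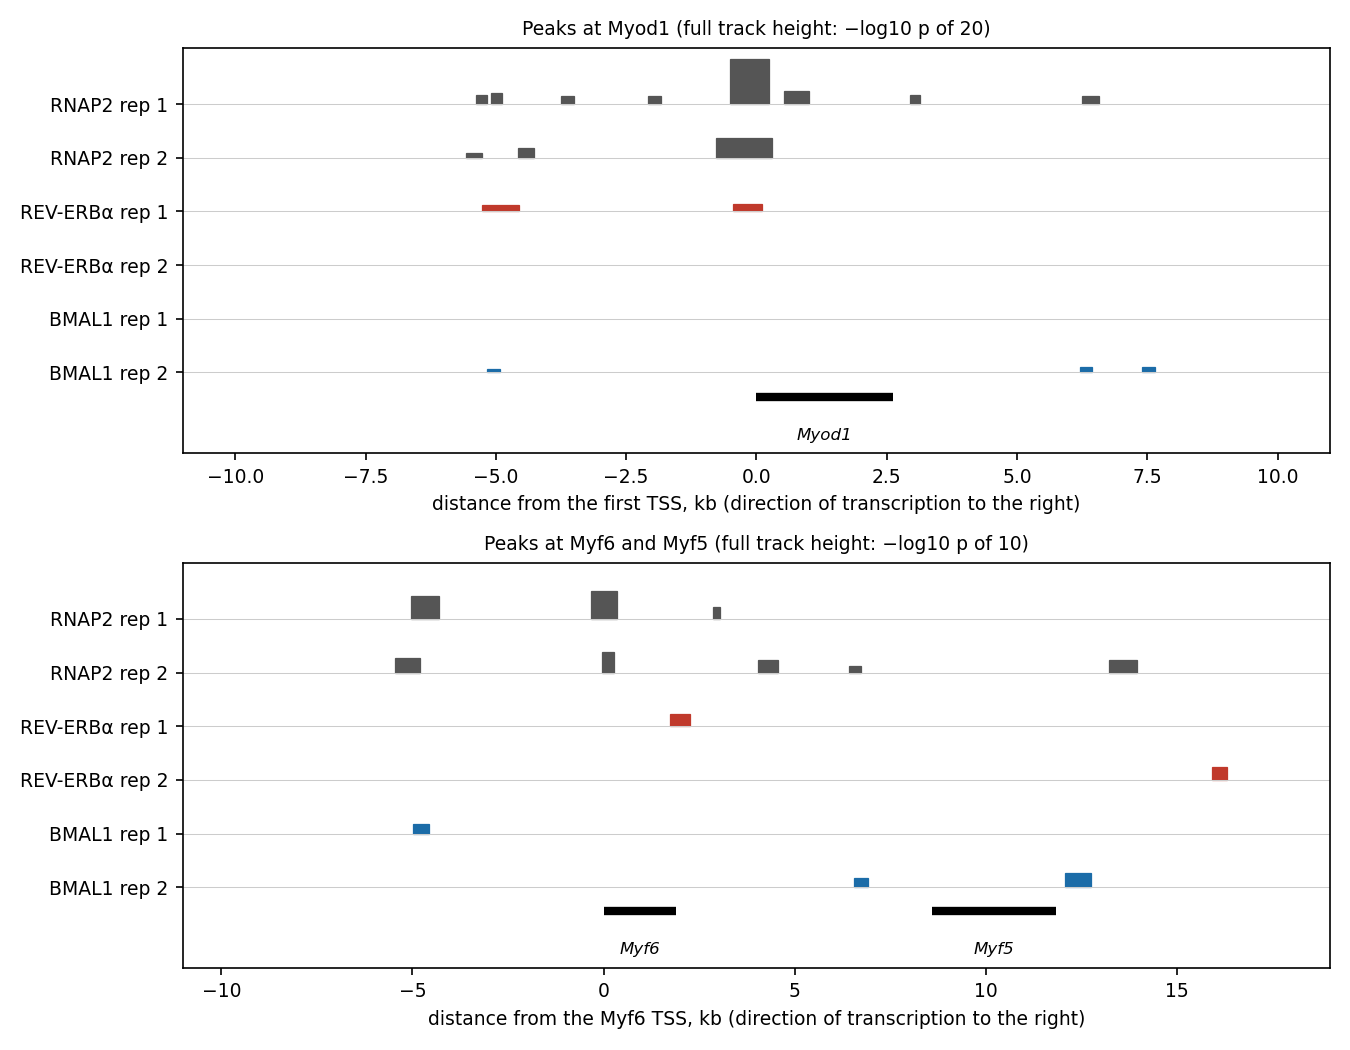
Peaks of the 6 lists around *Myod1* (top) and around *Myf6* and *Myf5* (bottom), drawn at their true width against the distance from the TSS in kb, with bar height giving −log10 p and black bars the gene bodies. Both RNAP2 replicates have a peak over the *Myod1* and *Myf6* start sites and neither has one over the *Myf5* start site; the REV-ERBα peaks at *Myod1*, of 3.02 and 2.50, are from replicate 1.

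*Mef2a* (ENSMUSG00000030557, chr7:67231163-67372858, − strand, 7 annotated TSSs) had the strongest REV-ERBα peak of the set. The region, at chr7:67372654-67373478, covers the most upstream TSS of the gene. For REV-ERBα the −log10 p was 15.8 and 6.60 in replicates 1 and 2, with fold enrichments of 6.05 and 3.60 and −log10 q of 10.8 and 2.15. The summits lay 84 and 217 bp upstream of the TSS. It was the only one of the members' regions of REV-ERBα or BMAL1 that passed the corrected threshold in both replicates. By the lower value within 1 kb of a TSS, 99.1% of protein-coding genes were below *Mef2a*. Within 10 kb of a TSS, the median lower REV-ERBα value of the 10 muscle fiber genes was 8.93, above the 6.60 of *Mef2a*.

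RNAP2 occupied the same promoter of *Mef2a* at ZT 4, in a region at chr7:67372186-67373655 that contains the whole REV-ERBα region. Its values were −log10 p of 13.6 and 8.30 with fold enrichments of 7.40 and 4.75, and both passed the corrected threshold. The replicate 1 summit was 40 bp downstream of the TSS and the replicate 2 summit 341 bp upstream. Counting the gene body and the 10 kb around each TSS, RNAP2 had 2 and 8 peaks at *Mef2a*, or 1.32 and 5.27 per 100 kb. Of the genes over 50 kb, 9.85% and 24.9% had a lower density.

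The 201 bases around the stronger REV-ERBα summit at *Mef2a*, chr7:67372842-67373042, are shown on the − strand, 5′ to 3′, because they hold a match to the MEF2 consensus across the start site of this MEF2 gene. The match, in capitals, is centered 86 bp from the REV-ERBα summit and begins 2 bp before the TSS.
Mef2a promoter, REV-ERBα: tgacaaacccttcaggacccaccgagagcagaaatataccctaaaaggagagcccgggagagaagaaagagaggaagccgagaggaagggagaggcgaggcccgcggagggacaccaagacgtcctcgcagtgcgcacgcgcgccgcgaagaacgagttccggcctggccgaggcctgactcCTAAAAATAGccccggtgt
Of all 1263 REV-ERBα regions present in both replicates, 4.28% had a MEF2 consensus match within 100 bp of the summit. Neither AGGTCA nor GGGTCA, elements that REV-ERBα can bind, occurs in this window.

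BMAL1 did not share the *Mef2a* promoter. Its region in both replicates lay in an intron, at chr7:67368797-67369432, 3516 and 3858 bp downstream of the TSS, with −log10 p of 2.48 and 1.87 and a −log10 q of 0 in each. The gene model Gm44668, of unsettled type, also covers this place. BMAL1 lists had 4 and 14 peaks over the whole gene, the highest at 2.98, and none stood within 1 kb of a TSS.

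*Mef2d* (ENSMUSG00000001419, chr3:88142372-88172086, + strand, 6 TSSs) had more regions in both replicates than any other member, with 6 of RNAP2 and 3 of REV-ERBα. At least 6 RNAP2 regions were found at 0.082% of protein-coding genes and at least 3 REV-ERBα regions at 0.137%. These limits were set at the counts of *Mef2d* after they were seen. One of the weaker RNAP2 regions, of 2.85 and 1.89, lay 1628 and 1605 bp upstream, and the strongest was the promoter region at chr3:88141824-88142734. In the promoter, −log10 p was 13.1 and 18.0 and fold enrichment 6.38 and 8.05, with summits 79 and 258 bp upstream of the TSS. By the lower value within 1 kb of a TSS, 97.5% of protein-coding genes were below *Mef2d*, the highest share of the 8 genes.

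The next strongest RNAP2 regions of *Mef2d* stood away from its promoter. A wide one, at chr3:88138219-88139825, lay 3269 and 3533 bp upstream with −log10 p of 8.09 and 11.4. Another, at chr3:88177672-88178194, lay past the 3′ end, 9761 and 9624 bp from the nearest *Mef2d* TSS, with 9.46 and 8.12. This downstream region is 228 bp from the start of 1700113A16Rik, an antisense transcript, and the polymerase there cannot be assigned to either gene. Weaker regions lay 8688 and 8745 bp upstream (6.03 and 2.60) and 838 and 632 bp downstream of a TSS (5.35 and 1.79).

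The 3 REV-ERBα regions of *Mef2d* were outside its promoter. The upstream one, at chr3:88138419-88139133, had −log10 p of 2.65 and 2.91 with summits 3849 and 3592 bp upstream of the TSS, and it overlapped the wide RNAP2 region. The intronic one, at chr3:88150124-88150741, had 5.41 and 3.75 at 7963 and 7885 bp from the nearest TSS, and no RNAP2 region overlapped it. The downstream one, at chr3:88177293-88178054, had 4.15 and 5.65 at 9189 and 9620 bp and overlapped the RNAP2 region beside 1700113A16Rik. Fold enrichments over the 3 regions were between 2.15 and 3.48. A −log10 q of 1.3 was reached in 1 of the 6 values, in replicate 2 of the downstream region, so these sites are weaker than that of *Mef2a*. With *Mef2a*, 3 of the 4 REV-ERBα regions at the 8 genes overlapped an RNAP2 region, where 32.9% of all 1263 did. Overlapping regions of the 2 factors were found at 2.45% of protein-coding genes and at 2 of the 8.

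The windows of 100 bp to each side of the stronger REV-ERBα summits at *Mef2d* are shown on the + strand because the outer pair share a stretch of 10 bases. In both, the E-box CACGTG runs into GGGTCA on the other strand with an overlap of 2 bases, giving CACGTGACCC. Capitals mark this stretch and, in the upstream window, a CAGCTG, the E-box type preferred by MRFs.
Mef2d upstream, chr3:88138680-88138880: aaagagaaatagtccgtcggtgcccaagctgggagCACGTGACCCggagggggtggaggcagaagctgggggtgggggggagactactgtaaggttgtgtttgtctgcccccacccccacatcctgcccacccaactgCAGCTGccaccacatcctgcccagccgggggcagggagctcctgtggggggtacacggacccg
Mef2d intron, chr3:88150437-88150637: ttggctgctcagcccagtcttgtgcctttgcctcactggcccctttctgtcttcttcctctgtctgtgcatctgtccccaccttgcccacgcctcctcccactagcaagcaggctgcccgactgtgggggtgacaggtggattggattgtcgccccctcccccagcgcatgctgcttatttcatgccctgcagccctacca
Mef2d downstream, chr3:88177772-88177972: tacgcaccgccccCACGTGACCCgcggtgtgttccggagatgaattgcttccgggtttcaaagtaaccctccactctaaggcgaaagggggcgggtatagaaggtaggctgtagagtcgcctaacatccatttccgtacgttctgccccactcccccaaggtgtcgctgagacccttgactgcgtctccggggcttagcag
The E-box is centered 62 bp from the summit in the upstream window and 84 bp in the downstream one. The stretch was searched after these sequences had been read, on both strands. It occurred in 3 of 1263 REV-ERBα regions (0.238%), which are this pair and a region nearest to *Tef*, a clock-controlled bZIP factor gene. It occurred in 0.316% of RNAP2 regions, 0.109% of BMAL1 regions and 0.381% of RefSeq promoters, which are 300 bases long against 201 for the windows. The intronic window held 0 of the 6 motifs searched.

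Although CACGTG is the element that CLOCK and BMAL1 bind, no BMAL1 peak covered either of these *Mef2d* sites. BMAL1 had 1 peak at *Mef2d* in replicate 1, at −log10 p of 2.47, and 5 in replicate 2, the highest at 2.40. They did not overlap, and BMAL1 had no region in both replicates at this gene.

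**Figure D3:**
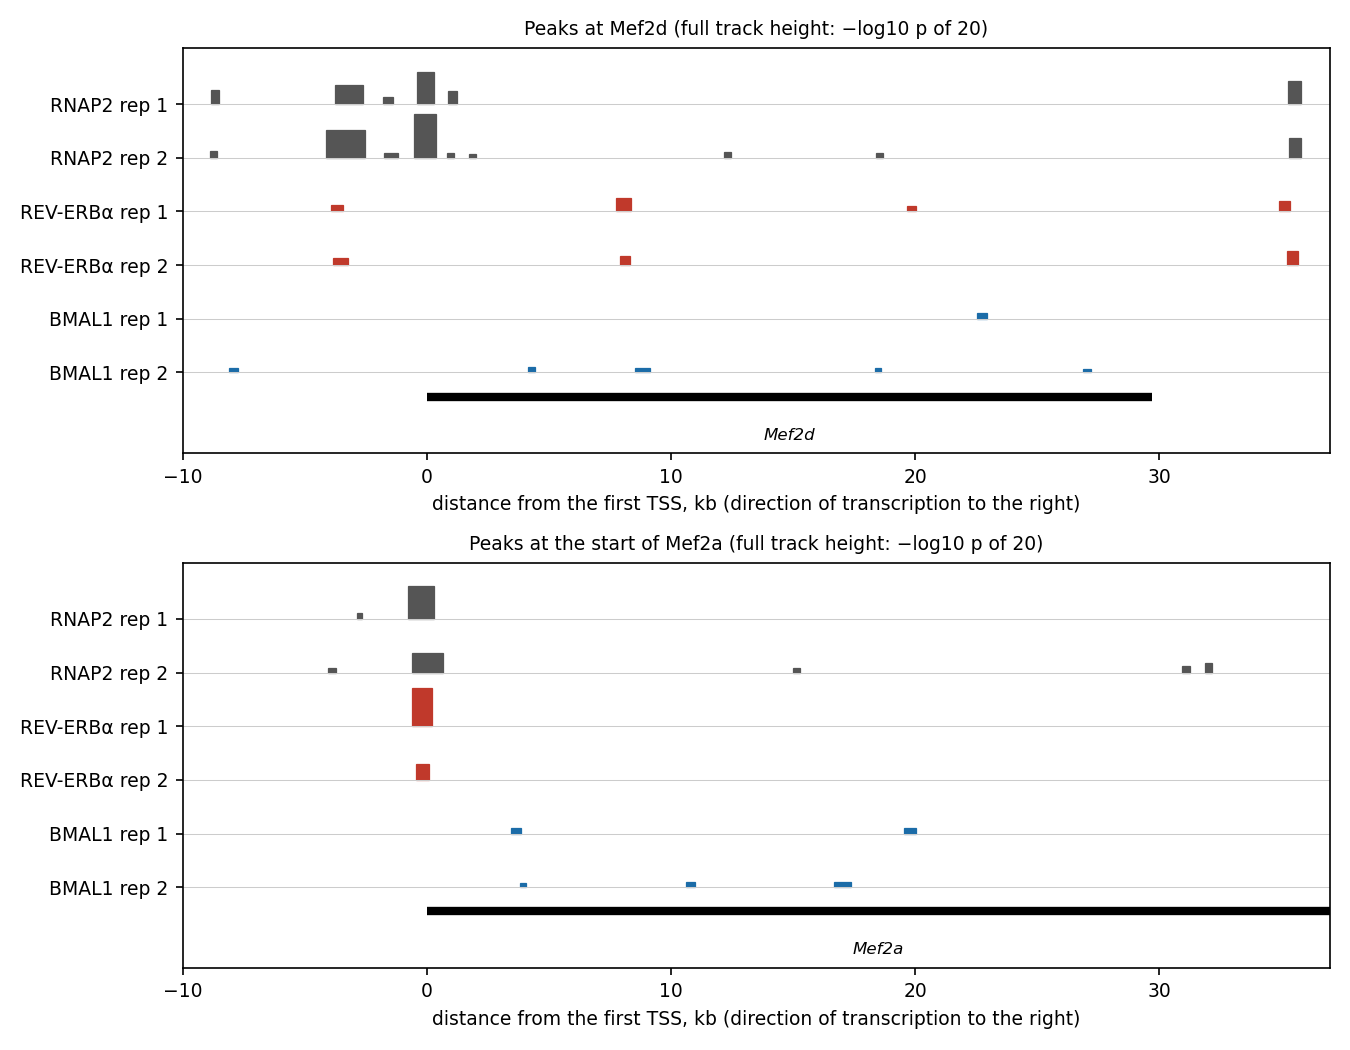
Peaks of the 6 lists along *Mef2d* (top) and at the start of *Mef2a* (bottom) against the distance from the most upstream TSS in kb, with bar height giving −log10 p, bar width the true width and black bars the gene bodies. REV-ERBα and RNAP2 stand together over the *Mef2a* start site and at the upstream and downstream sites of *Mef2d*, whereas the *Mef2d* promoter has RNAP2 (13.1 and 18.0) without a REV-ERBα region.

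*Mef2c* (ENSMUSG00000005583, chr13:83504034-83667080, + strand, 27 TSSs) had no RNAP2 region in both replicates. In replicate 1 the strongest RNAP2 peak was at the most upstream promoter, chr13:83503936-83504503, with −log10 p of 5.65, a summit 31 bp from the TSS and a −log10 q of 2.40. Replicate 2 had no peak there, and its strongest, of 4.73, lay in an intron at chr13:83649861-83650305. Around an inner group of start sites, replicate 1 had a peak of 2.50 at chr13:83524905-83525208 and replicate 2 one of 2.60 at chr13:83523525-83524196, which do not overlap. RNAP2 had 6 and 14 peaks over the gene, so the replicates differed in the places and not in the presence of peaks. REV-ERBα had 3 peaks in each replicate, up to 3.04 and 2.65, and none overlapped between them.

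BMAL1 had its highest values among the 8 genes at *Mef2c*, with 11 peaks in replicate 1 and 14 in replicate 2. In replicate 1 this was 6.36 peaks per 100 kb, against a median of 1.23 over the 5007 genes longer than 50 kb, 99% of which were lower. In replicate 2 it was 8.09 per 100 kb, against a median of 8.21, and 48.4% of these genes were lower. The high density of replicate 1 was not matched in the longer list, and the densities were computed after the counts had been seen. Peaks overlapped between the replicates at 2 places. Both are intronic: chr13:83505841-83506374, 1800 and 1969 bp downstream of the most upstream TSS, with 3.53 and 2.35, and chr13:83604652-83605445, 20432 and 20734 bp from the nearest TSS, with 4.12 and 1.40. All had a −log10 q of 0. The strongest peak of replicate 2, of 4.25, lay in another intron, at chr13:83644021-83644540, and had no partner in replicate 1.

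The 2 *Mef2c* windows, of 100 bp to each side of the stronger BMAL1 summit and on the + strand, are shown because they carry the only reproducible BMAL1 signal of the set besides the *Mef2a* intron. They have no capitals, as none of the motifs searched, CACGTG included, was found in them.
Mef2c intron, chr13:83505940-83506140: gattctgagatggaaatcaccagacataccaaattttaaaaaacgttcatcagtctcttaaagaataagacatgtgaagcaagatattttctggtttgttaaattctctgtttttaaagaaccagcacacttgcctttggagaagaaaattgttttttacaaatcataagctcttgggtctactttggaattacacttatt
Mef2c inner intron, chr13:83605071-83605271: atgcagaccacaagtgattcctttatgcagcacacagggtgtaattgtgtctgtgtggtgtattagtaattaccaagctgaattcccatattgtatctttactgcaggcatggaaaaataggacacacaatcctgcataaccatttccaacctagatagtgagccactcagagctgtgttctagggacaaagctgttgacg
Among all 2742 BMAL1 regions present in both replicates, 2.55% had a CACGTG within 100 bp of the summit. Absence of these letters from a window says nothing about other forms of the element.

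*Six4* (ENSMUSG00000034460, chr12:73099609-73113456, − strand, 2 TSSs) was the gene with the fewest peaks. Neither REV-ERBα nor BMAL1 had a peak there in any of their 4 lists. RNAP2 had 1 peak in replicate 1, of 3.21 in an intron 2050 bp from the TSS. In replicate 2 it had 3, of 3.26 in a coding exon, 2.39 in the promoter with a summit 597 bp from the TSS, and 1.99 at 5324 bp upstream. The replicates did not overlap, and none of the 4 peaks reached a −log10 q of 1.3.

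Across the 8 genes, the 6 motifs were searched on both strands within 100 bp of the stronger summit of each region. They were the clock E-box CACGTG and the E-box CAGCTG preferred by MRFs. MEF2 sites were searched by exact match to the consensus YTAWWWWTAR (Y is C or T, W is A or T, R is A or G), and MEF3 sites as TCAGGTT. The response elements of REV-ERBα were searched as AGGTCA and as the variant GGGTCA. The 12 RNAP2 regions held 3 MEF2 matches, at the *Myf6* promoter, the *Mef2a* promoter and 1628 bp upstream of *Mef2d*, where 1.9% of all 10752 RNAP2 regions held one. They held 0 CACGTG (4.7% of all RNAP2 regions), 1 CAGCTG (11.3%), 1 TCAGGTT (2.39%), 1 AGGTCA (9.58%) and 0 GGGTCA (8.97%). The 4 REV-ERBα regions held 2 CACGTG (3.4% of all REV-ERBα regions), 2 GGGTCA (8.63%), 1 CAGCTG (12.7%), 1 MEF2 match, 0 AGGTCA (13.1%) and 0 TCAGGTT (2.85%). The 3 BMAL1 regions held 1 MEF2 match, in the AT-rich *Mef2a* intron, where 5.65% of all BMAL1 regions held one. Many of these sites lay over 50 bp from the summit, and a match is a description of the sequence. With 50 bp to each side, 0 of the 12 RNAP2 regions held a MEF2 match, against 0.884% of all RNAP2 regions. At the 4 REV-ERBα regions only the CAGCTG match remained (6.81% of all REV-ERBα regions).

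Promoter sequences were found in RefSeq for 6 of the 8 genes, 9 sequences in all, without *Myod1* and *Myf6*. The 9 are not separate loci, as *Mef2c* and *Six4* each gave more than 1 and the *Six4* sequences overlap. TCAGGTT was present in 3 of the 9 (4.07% of all promoters), at *Myog*, *Six4* and the most upstream *Mef2c* start. The MEF2 consensus was present in 1, at *Mef2a* (3.19% of all promoters), AGGTCA in 2 of *Mef2c* (16.3%) and GGGTCA in 1 of *Six4* (13.7%). CACGTG (7.15% of all promoters) and CAGCTG (16.3%) were present in 0 of the 9. Only exact matches were counted, so a promoter without one, *Myog* included, may hold other forms of MEF2 sites or E-boxes.

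The partners of these factors were examined as a list of 32 genes with the same rule. RNAP2 regions in both replicates were found at 14 of 32 (43.8%), close to the 41.1% of all protein-coding genes. Within 1 kb of a TSS they were found at 10 of 32, against 30.5%. Of the relatives of *Six4* and the EYA and PAX genes, 2 of 8 had such a region: *Six2* and *Eya4*. Of the E proteins and the inhibitors of basic helix-loop-helix factors, 3 of 8 did: *Tcf3*, an E protein that dimerizes with the MRFs, and *Id2* and *Id3*, whose products sequester E proteins. *Id3* reached −log10 p of 17.6 and 18.9 and *Id2* 11.2 and 9.09, both at the TSS. The *Id3* values were thus above those of the *Mef2d* promoter in both replicates.

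Genes that restrain or assist MEF2, listed with *Mef2b*, had an RNAP2 region in both replicates at 7 of 9, against 41.1% of all protein-coding genes. Within 1 kb of a TSS it was 5 of 9, against 30.5%. Groups this small cannot be set apart from the background. *Mef2b*, a MEF2 gene outside the set of 8, had no RNAP2 region in both replicates. The 7 included the 4 class IIa histone deacetylase genes *Hdac4*, *Hdac5*, *Hdac7* and *Hdac9*. They also included the MEF2 coactivator gene *Mamstr* and *Srf*, a MADS-box relative of MEF2. The *Hdac9* region, of 3.97 and 2.60, is intronic and 91697 bp from the nearest TSS. That of *Vgll3*, of 3.21 and 3.26, lies 9991 bp upstream. *Hdac4* had 7.36 and 9.43 at 501 bp from a TSS. The strongest region assigned to *Hdac7*, of 15.4 and 7.47, lies 6 bp from the start of its neighbor *Slc48a1*, and its own promoter had 3.20 and 2.26. Fusion and synapse genes, which are targets of the MRFs, had 2 of 7 (*Mymx* and *Chrng*), and both regions lie at the start sites of neighboring genes, *Slc29a1* and *Eif4e2*. The region assigned to *Chrng*, the fetal acetylcholine receptor subunit gene, had 17.7 and 6.00. REV-ERBα had a region in both replicates at 0 of the 32 partner genes, against 4.44% of protein-coding genes. BMAL1 had one at 3 of 32, against 6.81%, in introns and at low values, and a site in 3 or more of the 4 clock factor lists was found at 1 of 32, *Tcf12*, against 1.62%. The BMAL1 values were 1.52 and 1.81 at *Eya4*, 2.95 and 1.87 at *Hdac9*, and up to 2.48 and 1.87 in a pair of regions at *Tcf12*, an E protein gene.

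**Figure D4:**
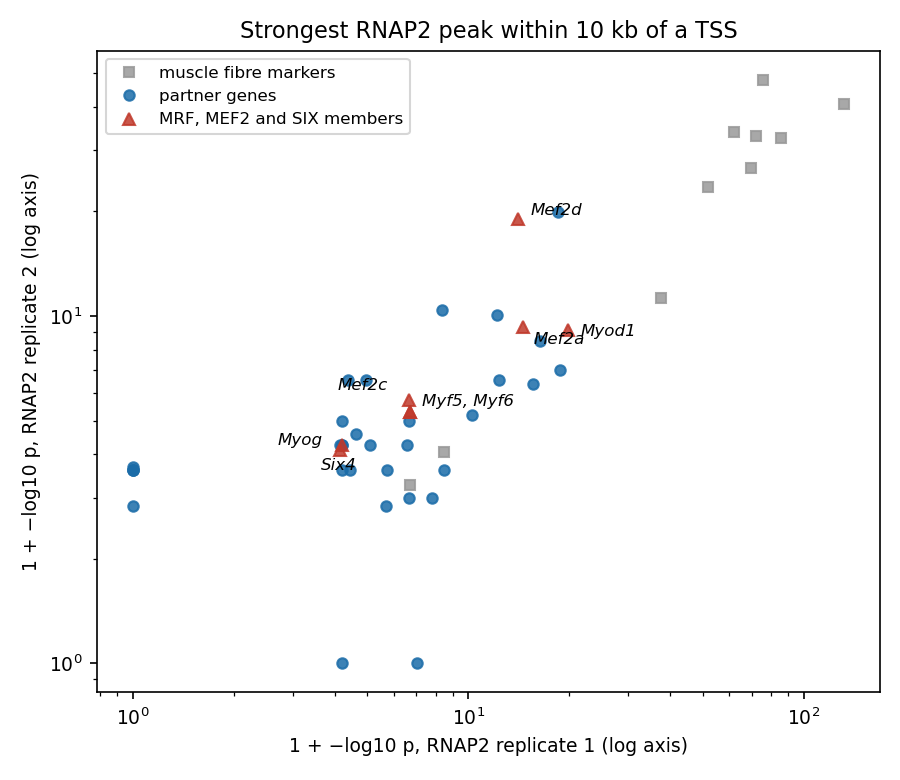
Strongest RNAP2 peak within 10 kb of a TSS in replicate 1 (x axis) and replicate 2 (y axis), as 1 + −log10 p on log axes, for the 8 genes (red triangles, named), the 32 partner genes (blue circles) and the 10 muscle fiber genes (gray squares). *Mef2d*, *Mef2a* and *Myod1* lie above the other members and below most fiber genes, whose median lower value was 28.6, and genes at 1 have no peak in that replicate.

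Because the tissue was whole muscle, the same lists were read at markers of other cells. Of 22 markers of satellite, endothelial, immune, connective tissue, fat, Schwann and smooth muscle cells, 6 had an RNAP2 region in both replicates (*Kdr*, *Csf1r*, *Cd68*, *Dcn*, *Col1a1* and *Fabp4*), against 41.1% of all protein-coding genes. The median lower value over the list was 2.60, against 2.50. *Cd68*, a macrophage gene, had RNAP2 at 27.7 and 9.47, above *Myod1* and *Mef2a* in both replicates, and the only REV-ERBα region in both replicates among these markers (6.67 and 8.54). Its strongest RNAP2 region and the REV-ERBα region lie at the start of a neighboring gene, *Eif4a1*. The highest value at a marker's own promoter was that of *Col1a1*, a fibroblast collagen gene, with 16.1 and 5.52. The defining satellite cell gene *Pax7* had no RNAP2 peak in replicate 1 and one of 2.60 in replicate 2. *Cdh15* had peaks of 3.21 and 3.26 and *Calcr* of 3.97 and 2.60, values near those of *Six4* and *Myog*, and *Vcam1* had none in replicate 1 and one of 5.52 in replicate 2. None of these 4 markers had overlapping peaks in both replicates. *Myod1* and *Myf5* are also genes of satellite cells, and the share of their signal that comes from those cells was not tested.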

How the data were processed

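Peak lists of 6 ChIP-seq samples (BMAL1 and RNAP2 at ZT 4, REV-ERBα at ZT 8, 2 replicates each) were used, and the input DNA sample was not used here as it has no peak list. Per the submitters' notes and the methods of the study, the authors aligned reads to mm10 with BWA, discarded duplicates and reads mapping to several places, brought replicates of a factor to similar depth, and ran MACS2 2.1.1 per sample against input at a p cutoff of 0.05. The deposited ratio is the fold enrichment over input at the summit. The deposited −log10 p and −log10 q are those of MACS2. The deposited score restates the −log10 p and was not used. Reads were not analysed here, so no depth was available per peak.

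Genes were those of GENCODE M21. The study calls peaks common to the replicates reproducible; here peaks sharing 1 bp or more were merged, a rule not given in the sources used here, and a region counted when both replicates had a peak in it, so totals may differ from the study's. The same count over all 21938 protein-coding genes served as background, and no test was made. Motifs were searched on both strands within 100 bp of the stronger summit, and sequences came from the GRCm38 genome and RefSeq promoters. The 8 genes, partner lists, markers and motifs were chosen with earlier results of these data known, and 2 genes of the partner and marker lists are not reported here. Named besides the members were partners with a BMAL1 or REV-ERBα region or with 1 of the 5 highest RNAP2 values, the genes whose start lies nearest to a region, the 2 strongest fiber genes and the 2 genes most like each member; other partners and markers named with a count were added after the values were seen. Length classes, the 30 kb window, peak densities and the 10-base search were also added after seeing the data. The overlap and window code was tested on simulated data. Python 3.11.15, numpy 2.4.6 and matplotlib 3.10.9 were used. Alternatives were a −log10 p of 3, a −log10 q of 1.3, equal list sizes, 50% overlap, other gene windows, 50 bp motif windows and leaving out each replicate.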

Additional observations from a re-analysis of the deposited data

How the results depend on the processing

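The count of 6 genes with an RNAP2 region in both replicates was 5 with a −log10 p of at least 3, with equal list sizes, with 50% of the shorter peak covered or with a 5 kb window, 6 with the TSS window alone, and 3 with a −log10 q of at least 1.3 (*Myod1*, *Mef2a* and *Mef2d*). *Myog* was lost under the first 3 of these and *Myf5* under the 5 kb window. The 2 genes with a REV-ERBα region became 1 with the q threshold (*Mef2a*) and remained *Mef2a* and *Mef2d* under the other thresholds, overlaps and windows. The 2 genes with a BMAL1 region became 0 with either stricter threshold or with equal list sizes and 1 (*Mef2c*) with 50% overlap. Leaving out a replicate leaves a single list per factor and counts any peak: 8 genes for RNAP2 without replicate 1 or 2 (86.5% and 76.9% of all genes), 5 without replicate 1 and 6 without replicate 2 of REV-ERBα (40.1% and 38.7%), and 6 and 4 for BMAL1 (84.4% and 38.2%). The count of genes with a site in at least 3 of the 4 clock factor lists was 0 under each setting. Motif matches fell from 6 to 3 for RNAP2 and from 6 to 1 for REV-ERBα with 50 bp to each side, a shorter search, and stayed at 1 for BMAL1. No paired analysis was possible because the results come from no test. The lack of read counts per peak and the 2 replicates limit each value, and BMAL1 at these genes rests on peaks with a −log10 q of 0.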

Other observations

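For members with peaks within 10 kb of a TSS in at least 4 of the 6 lists, the protein-coding genes most like them were sought by the Euclidean distance over the 6 values log10(1 + strongest −log10 p), leaving out genes within 1 Mb. Nearest to *Mef2a* were *Lrp6*, a WNT co-receptor gene (distance 0.203), and *Plin4*, a lipid droplet coat protein gene (0.29). *Lrp6*, chosen by these same values, had REV-ERBα at 14.5 and 5.03, RNAP2 at 10.3 and 5.91 and BMAL1 at 2.79 and 3.02. Nearest to *Mef2d* were *Hexim2*, an inhibitor of the elongation factor P-TEFb (0.105), and *Atp2b1*, a plasma membrane calcium pump gene (0.179). *Mef2c* was nearest to *Atr* (0.111) and *Suclg2* (0.121), *Myod1* to *Coro7* (0.0592) and *Ccm2* (0.0668), *Myf5* to *Prep* (0.0531) and *Cerk* (0.0633), and *Myf6* to *Tulp3* (0.0762) and *Dynlrb1* (0.0978). *Myog*, with peaks in 3 lists, and *Six4*, with peaks in 2, were below the limit. The distances rest on 6 values each and are a description.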
